A study of Caenorhabditis elegans with 8 samples.

Results

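The 10 genes described here time larval development and the molts of *Caenorhabditis elegans*, and their RNA was measured by sequencing in a *smrd-1* deletion strain and its control. They were chosen by name (*lin-14*, *lin-28*, *lin-29*, *lin-41*, *lin-42*, *lin-46*, *hbl-1*, *nhr-23*, *nhr-25* and *blmp-1*), and all 10 names were found among the 46926 genes of the count table. The series holds 8 libraries of polyadenylated RNA from whole worms, of which 4 carry the label non-Tg and 4 the label *smrd-1 Δ#1*. Non-Tg is the wild-type strain N2, and *smrd-1 Δ#1* is a CRISPR-Cas9 deletion of exons 1 to 6 of *smrd-1*, the worm homolog of the chromatin remodeler gene *SMARCAD1*. All animals were grown on OP50 bacteria and none carried a tau transgene. The sources give 2 stages for these animals, L4 in the extraction protocol and adult in the design text, and no age in hours. Nothing says that the replicates came from separate cultures, so p-values measure the spread between these libraries, which may be technical.

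The heterochronic pathway is a chain of regulators that tells each larval cell, above all the seam cells of the skin, which stage it is in. Early proteins such as LIN-14, LIN-28 and HBL-1 hold cells in early fates and are switched off one after another, largely by the microRNAs lin-4 and let-7 and their relatives, until LIN-29 turns on the adult program. A second set of regulators, among them LIN-42, NHR-23, NHR-25 and BLMP-1, drives gene activity that rises and falls once in each larval stage and ends in a molt. Since many of these genes change within hours in every growing larva, their levels in a pool of animals depend on the stage of those animals. In RNA from whole animals, fewer cells of a type and less RNA per cell cannot be told apart.

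Each library held 74704022 to 78008833 counts. The counts of the 10 genes ran from 90 to 32726, so all 10 were measured well above the floor of 3 counts, and all 10 passed the expression filter. The deleted gene itself reached 2997 to 4073 counts under the non-Tg label and 6252 to 6874 under the *smrd-1 Δ#1* label. Between the groups the log2 fold change was 0.83, with a standard error of 0.0813 and an adjusted p of 0.00889 from edgeR. In the fit without replicate 1 labelled *smrd-1 Δ#1* its adjusted p was 0.0574 from edgeR. The count was meant to check the labels. It is taken over the whole gene and does not separate deleted from remaining exons. The higher count under the label *smrd-1 Δ#1* thus did not bear the labels out, and it cannot settle whether they are right. The groups are therefore named by their labels, and every direction below holds only if the labels do.

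On the scale that divides counts by exon length (TPM), *lin-42*, the worm *period* homolog, had the highest level of the 10 genes in all 8 libraries. Its mean over the 8 libraries was 89.2 TPM and its range 60.9 to 120.3. The genes *blmp-1*, *nhr-23* and *lin-29* followed at mean TPM of 29.8, 29.7 and 28.1, and *lin-41* and *lin-28* at 22.6 and 22.1. These neighbours did not differ beyond their spread, since *blmp-1* was above *nhr-23* in 4 of 8 libraries, *nhr-23* above *lin-29* in 5, *lin-29* above *lin-41* in 6 and *lin-41* above *lin-28* in 5. *lin-28* was above the next gene, *lin-14*, in 6 libraries. *lin-14* had a mean of 15.1 TPM and a range of 9.65 to 21.3. It was above *nhr-25* in all 8 libraries. The lowest levels were those of *nhr-25* (mean 3.98 TPM, range 1.80 to 8.75), *hbl-1* (mean 3.64 TPM, range 1.77 to 5.49) and *lin-46* (mean 2.46 TPM, range 0.97 to 5.64), whose ranges overlapped. Over the genes tested the median of the mean level was 9.44 TPM, and 7 of the 10 genes lay above it.

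**Figure D1:**
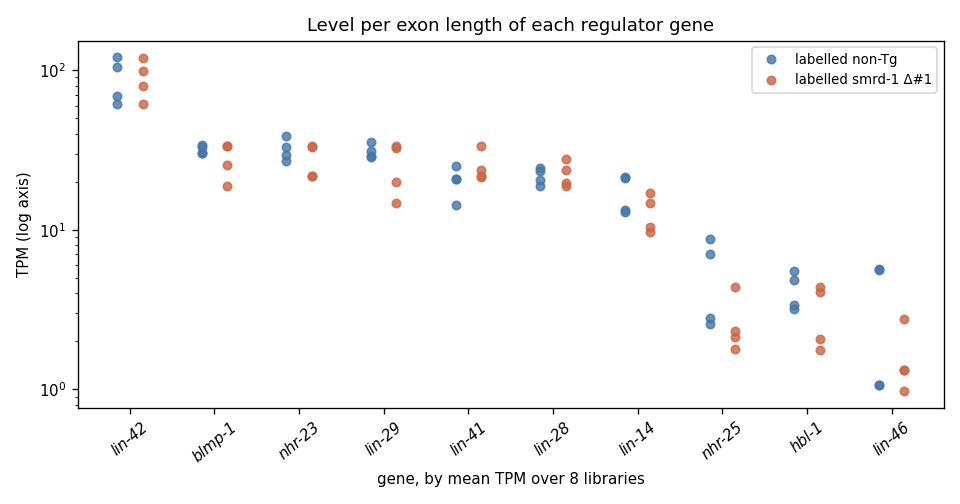
Level of each regulator gene in TPM (log axis) in each of 8 libraries, 4 labelled non-Tg and 4 labelled smrd-1 Δ#1, with genes ordered by their mean. All libraries of lin-42 lie between 60.9 and 120.3 TPM, and nhr-25, hbl-1 and lin-46 share the low end from 0.97 to 8.75 TPM.

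None of the 10 genes passed the test between the labelled groups. edgeR's quasi-likelihood test with Benjamini-Hochberg adjustment over 16808 genes called 0 of the 10, while it called 0.155% of all genes tested. Before adjustment, 0 of the 10 had a p-value under 0.05, against 7.74% of all genes. DESeq2 also called 0 of the 10, against 1.26% of the genes it adjusted, and 1 of the 10, *nhr-25*, had an unadjusted p under 0.05 from it (0.0298), against 7.38% of all genes. As labelled, the log2 fold change was below 0 for 7 of the 10, where 51.4% of all genes tested were below 0. Its median was -0.27 over the 10 and -0.01 over all genes tested. In 0 of the 10 genes were the groups free of overlap over the 8 libraries, against 5.20% of all genes. A fit blocked on replicate number again called 0 of the 10 and 0.155% of all genes, and the smallest adjusted p among the 10 was 0.0808, for *lin-14*.

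The libraries of a group differed for most of these genes. Over the 8 libraries the median range was 2.33-fold for the 10 genes and 1.93-fold for all genes tested. Replicates 1 and 2 lay together and apart from replicates 3 and 4, a division that was known from earlier results of these data and is no condition of the experiment. For 8 of the 10 genes, replicates 3 and 4 were both above or both below replicates 1 and 2 within each group. All genes tested showed such an order in 22.1% (lower in both groups), 21.4% (higher in both groups), 3.64% (higher in the group labelled non-Tg and lower in the other) and 2.59% (the reverse), and no such order in 50.2%. The genes are described by their order over the 4 pairs of libraries, with the level in every library. The level is given in CPM (counts scaled to a common library size), with library sizes scaled by TMM, and n = 4 for every SD.

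The early-fate genes *lin-14* and *hbl-1* and the molting receptor gene *nhr-23* had one order in common, a level that stepped down from replicates 1 and 2 labelled non-Tg to replicates 3 and 4 labelled *smrd-1 Δ#1*. *lin-14*, which encodes a nuclear protein that specifies fates of the first larval stage, was at 67.7, 69.3, 39.9 and 40.8 CPM in replicates 1 to 4 labelled non-Tg. In those labelled *smrd-1 Δ#1* it was at 53.9, 47.4, 29.2 and 32.4 CPM. No pair of libraries overlapped with another pair: replicates 1 and 2 labelled non-Tg were highest, followed by replicates 1 and 2 labelled *smrd-1 Δ#1*, by replicates 3 and 4 labelled non-Tg, and by replicates 3 and 4 labelled *smrd-1 Δ#1*. The group means of 54.4 ± 16.3 CPM (SD) for non-Tg and 40.8 ± 11.8 (SD) for *smrd-1 Δ#1* differed by less than the SD of the non-Tg libraries. edgeR's log2 fold change of *lin-14* was -0.42 (standard error 0.261, 95% interval -1.01 to 0.18, adjusted p = 0.694 from edgeR). Within replicates 1 and 2 the difference in mean log2 CPM was -0.44, and within replicates 3 and 4 it was -0.39.

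*hbl-1*, the worm relative of *hunchback*, encodes a zinc-finger protein that holds back later fates. Its level was 21.3, 19.4, 12.1 and 12.7 CPM in replicates 1 to 4 labelled non-Tg and 16.8, 16.0, 6.55 and 7.84 CPM in those labelled *smrd-1 Δ#1*. The 4 pairs of libraries stood in the same order as for *lin-14*, again without overlap between pairs. The log2 fold change was -0.47 (standard error 0.346, 95% interval -1.26 to 0.32, adjusted p = 0.712 from edgeR), and the difference in mean log2 CPM was -0.31 in replicates 1 and 2 and -0.79 in replicates 3 and 4.

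*nhr-23* encodes the worm ROR-type nuclear receptor, without which larvae fail to molt. It was at 84.7, 75.1, 57.7 and 62.3 CPM in replicates 1 to 4 labelled non-Tg and at 73.1, 72.8, 45.4 and 46.4 CPM in those labelled *smrd-1 Δ#1*. The order of the pairs was once more the same, although replicates 1 and 2 of the 2 groups were close. Between the groups the log2 fold change was -0.24 (standard error 0.200, 95% interval -0.69 to 0.22, adjusted p = 0.732 from edgeR). Within replicates 1 and 2 it differed by -0.13 and within replicates 3 and 4 by -0.39. This order of the 4 pairs, which was singled out after the values were seen, was found in 3 of the 10 genes and in 5.0% of all genes tested. The reverse order was found in 0 of the 10 genes and in 5.27% of all genes. The axis of largest variation over all genes tested (first principal component, 50% of the variance) also kept the 4 pairs in the sequence of *lin-14*. Its scores were -50.7 and -69.7 for replicates 1 and 2 labelled non-Tg, and -24.8 and -9.2 for those labelled *smrd-1 Δ#1*. For replicates 3 and 4 they were 24.7 and 16.7 under the label non-Tg and 61.2 and 51.7 under the other.

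*nhr-25* and *lin-46* did not have that order, and in both replicates 1 and 2 labelled non-Tg stood above all other libraries. *nhr-25*, the worm FTZ-F1 receptor gene, which acts in the skin and in molting, was at 15.8, 20.2, 6.04 and 5.55 CPM in replicates 1 to 4 labelled non-Tg. In those labelled *smrd-1 Δ#1* it was at 9.73, 5.24, 3.83 and 4.60 CPM. Its log2 fold change was -1.02 (standard error 0.480, 95% interval -2.12 to 0.07, adjusted p = 0.646 from edgeR), with an unadjusted p of 0.0630 from the same test. That difference came to -1.32 in replicates 1 and 2 and -0.46 in replicates 3 and 4, and both libraries labelled *smrd-1 Δ#1* were below both labelled non-Tg in each. Groups that were lower in both sets of replicates without overlap were found for 4 of the 10 genes, *lin-14*, *hbl-1*, *nhr-23* and *nhr-25*, and in 11.9% of all genes. Groups that were higher in both were found for 0 of the 10 and in 12.6% of all genes.

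*lin-46*, whose product opposes HBL-1 and is held down by LIN-28, was the gene with the widest range, 6.17-fold over the 8 libraries. Its counts were 490, 492, 94 and 98 in replicates 1 to 4 labelled non-Tg, and 238, 116, 116 and 90 in replicates 1 to 4 labelled *smrd-1 Δ#1*. Scaled, these were 6.59, 6.91, 1.22 and 1.21 CPM in the former and 3.27, 1.59, 1.49 and 1.12 CPM in the latter. Outside replicates 1 and 2 labelled non-Tg and replicate 1 labelled *smrd-1 Δ#1*, all libraries were between 1.12 and 1.59 CPM. edgeR's log2 fold change of -1.09 (standard error 0.655, 95% interval -2.58 to 0.40, adjusted p = 0.689 from edgeR) rested on replicates 1 and 2, where the difference was -1.55, while it was 0.09 within replicates 3 and 4. Without replicate 1 or replicate 2 labelled non-Tg it was -0.74 and -0.69. Both libraries labelled non-Tg with numbers 1 and 2 were the highest of all 8 for 5 of the 10 genes, against 16.6% of all genes tested.

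Among all genes tested, the 3 whose pattern was most like that of *lin-46* were ZC15.11, *ztf-29* and the collagen gene *col-146*. Likeness was taken as the root mean square difference of log2 CPM, centred on each gene's mean, over the 8 libraries, and it was 0.19 for ZC15.11, 0.23 for *ztf-29* and 0.23 for *col-146*. *col-146* was at 380.2, 496, 88.2 and 67.9 CPM in replicates 1 to 4 labelled non-Tg and at 222, 129, 126 and 104 CPM in those labelled *smrd-1 Δ#1*.

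**Figure D2:**
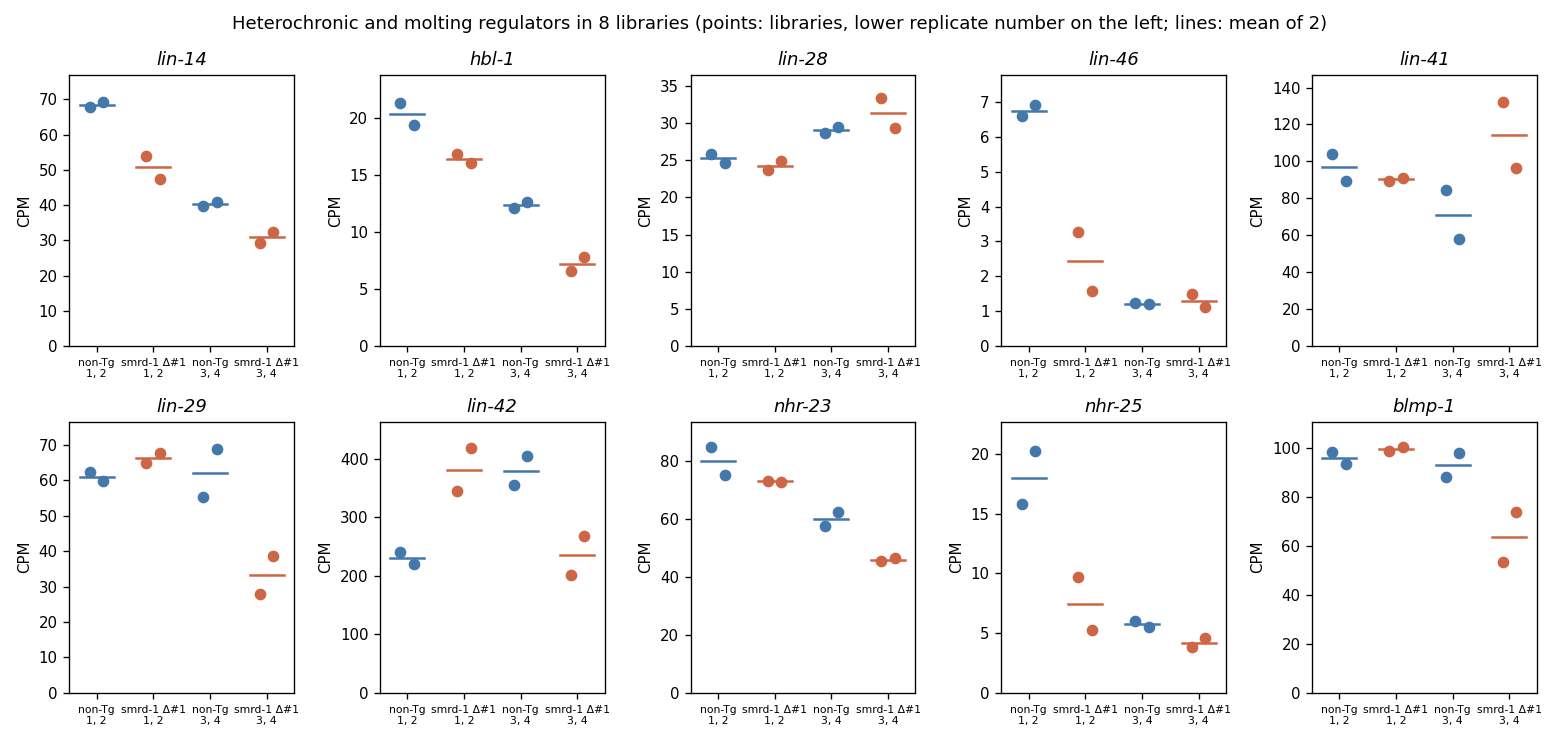
Level in CPM of each of the 10 genes, with the 8 libraries in 4 pairs by label and replicate number (points are libraries, lines the mean of 2). lin-14, hbl-1 and nhr-23 step down from left to right, lin-42 is highest in the 2 middle pairs, and lin-29 and blmp-1 are lowest in the last pair.

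*lin-42* had a different order, high in the middle pairs and low at both ends. It was at 240.1, 219.7, 355 and 404 CPM in replicates 1 to 4 labelled non-Tg and at 345, 418, 202 and 268 CPM in those labelled *smrd-1 Δ#1*. Replicates 1 and 2 labelled *smrd-1 Δ#1* and replicates 3 and 4 labelled non-Tg were between 345 and 418 CPM, and the other 4 libraries between 202 and 268 CPM. The group means were therefore close, 305 ± 89.1 CPM (SD) for non-Tg and 308 ± 93.7 (SD) for *smrd-1 Δ#1*. The log2 fold change was 0.02 (standard error 0.265, 95% interval -0.59 to 0.62, adjusted p = 0.984 from edgeR).

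That small value was the mean of opposite differences. Within replicates 1 and 2, *lin-42* was 1.65-fold higher in the libraries labelled *smrd-1 Δ#1* (log2 difference 0.72), and within replicates 3 and 4 it was 1.63-fold lower (log2 difference -0.70), without overlap in either. The change of sign itself was not tested. Middle pairs above both end pairs were found in 1 of the 10 genes and in 2.61% of all genes tested.

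*lin-29* and *blmp-1* had another order, in which replicates 3 and 4 labelled *smrd-1 Δ#1* alone stood low. *lin-29* encodes the zinc-finger protein that ends larval skin development. Its level was 62.3, 59.7, 55.2 and 68.9 CPM in replicates 1 to 4 labelled non-Tg and 64.9, 67.6, 28.0 and 38.7 CPM in those labelled *smrd-1 Δ#1*. The other 6 libraries lay between 55.2 and 68.9 CPM. Between the groups the log2 fold change was -0.31 (standard error 0.261, 95% interval -0.90 to 0.29, adjusted p = 0.734 from edgeR). Within replicates 1 and 2 the difference was 0.12, and within replicates 3 and 4 it was -0.90, a 1.87-fold lower level.

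*blmp-1*, the worm BLIMP-1 gene, encodes a transcription factor that opens chromatin at cycling genes in the skin. It was at 98.3, 93.5, 88.3 and 98.1 CPM in replicates 1 to 4 labelled non-Tg and at 98.9, 100.2, 53.2 and 74.0 CPM in those labelled *smrd-1 Δ#1*. edgeR's log2 fold change was -0.21 (standard error 0.185, 95% interval -0.63 to 0.21, adjusted p = 0.737 from edgeR). Within replicates 1 and 2 the difference of 0.05 was smaller than that between the 2 libraries labelled non-Tg, and within replicates 3 and 4 it was -0.57. Counting *lin-14*, *hbl-1*, *nhr-23* and *nhr-25*, replicates 3 and 4 labelled *smrd-1 Δ#1* were the lowest of the 8 libraries for 6 of the 10 genes, against 19.1% of all genes.

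The remaining genes, *lin-28* and *lin-41*, were not lower as labelled. *lin-28*, which encodes an RNA-binding protein that blocks the maturation of let-7, varied least, 1.40-fold over the 8 libraries. It was at 25.9, 24.6, 28.7 and 29.5 CPM in replicates 1 to 4 labelled non-Tg and at 23.7, 24.8, 33.3 and 29.3 CPM in those labelled *smrd-1 Δ#1*. Replicates 3 and 4 were above replicates 1 and 2 in each group, and the groups overlapped throughout. The log2 fold change was 0.03 (standard error 0.126, 95% interval -0.25 to 0.32, adjusted p = 0.933 from edgeR).

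*lin-41* encodes an RNA-binding protein that is silenced by let-7 in the skin and that also acts in growing oocytes. Its level was 104, 89.3, 84.6 and 57.8 CPM in replicates 1 to 4 labelled non-Tg and 89.5, 90.9, 132 and 96.6 CPM in those labelled *smrd-1 Δ#1*. Replicate 3 labelled *smrd-1 Δ#1* was the highest library and replicate 4 labelled non-Tg the lowest. Between the groups the log2 fold change was 0.29 (standard error 0.193, 95% interval -0.15 to 0.73, adjusted p = 0.706 from edgeR), with -0.10 in replicates 1 and 2 and 0.69 in replicates 3 and 4.

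Levels of genes expressed in oocytes stood beside those of *lin-41*. The list held *oma-1*, *oma-2*, *rme-2*, *puf-5*, *puf-11*, *cbd-1*, *egg-1* and *egg-2*, and its summed level was 554, 327, 712 and 409 CPM in replicates 1 to 4 labelled non-Tg. Under the label *smrd-1 Δ#1* it was 521, 668, 1238 and 910.1 CPM. Both *lin-41* and the oocyte sum were highest in replicate 3 labelled *smrd-1 Δ#1*, and both were higher in replicate 3 than in replicate 4 of each group. They differed elsewhere, since the lowest library was replicate 4 labelled non-Tg for *lin-41* and replicate 2 labelled non-Tg for the oocyte sum. In the libraries labelled non-Tg, *lin-41* was lower in replicates 3 and 4 than in replicates 1 and 2 (log2 difference -0.46), while the highest oocyte sum was that of replicate 3. All 8 oocyte genes had a log2 fold change above 0, from 0.58 to 0.96, 4 had an unadjusted p under 0.05 and edgeR called 0. DESeq2 called 0 of the 8 as well, with 6 unadjusted p under 0.05. The part of oocyte RNA in the level of *lin-41* was not tested.

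**Figure D3:**
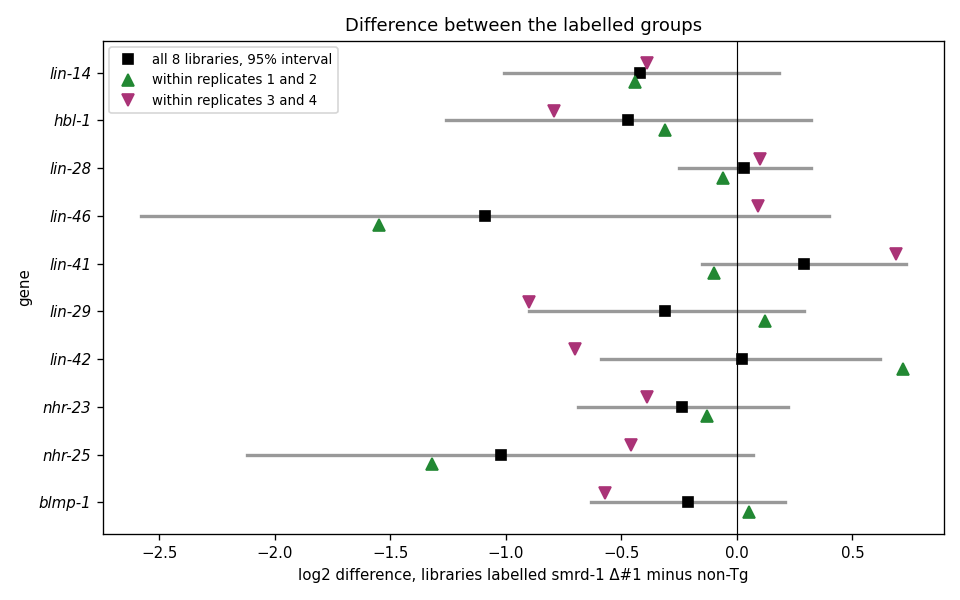
Log2 difference of the libraries labelled smrd-1 Δ#1 from those labelled non-Tg for each gene. Squares with bars are edgeR's estimate over 8 libraries with its 95% interval, and triangles are differences of mean log2 CPM within replicates 1 and 2 or within replicates 3 and 4; all 10 bars cross 0, and for lin-42 the triangles lie at 0.72 and -0.70.

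Markers of stage and of other tissues were read in the same libraries. All 6 yolk protein genes (*vit-1* to *vit-6*), which the adult intestine expresses, had log2 fold changes above 0, from 1.14 to 1.96. edgeR called 0 of the 6, with 6 unadjusted p under 0.05 and a smallest adjusted p of 0.449, and DESeq2 called 3. Their summed level was 2249 to 6596 CPM in the libraries labelled non-Tg and 6583 to 18352 CPM in those labelled *smrd-1 Δ#1*, and both replicates 3 and 4 labelled *smrd-1 Δ#1* were above all other libraries for each of the 6 genes, an order found in 20.3% of all genes tested and in 0 of the 10 regulators. Over all 8 libraries the sums of the sperm and skin lists overlapped between the groups, with 0 calls and 0 unadjusted p under 0.05 from edgeR and from DESeq2. The 6 sperm genes summed to 50.6 to 99.8 CPM in the libraries labelled non-Tg and 71.3 to 109 CPM in the others. Within each set of replicates this sum was higher under the label *smrd-1 Δ#1*, without overlap. The single genes did not share that. Only 1 of the 6 was higher in both sets without overlap, an order found in 12.6% of all genes tested. A further 2 were higher within replicates 1 and 2 and lower within replicates 3 and 4, against 6.31% of all genes. The 5 early embryo genes summed to at most 0.672 CPM in any library, and 1 of them passed the expression filter. *pes-10*, one of these, had 0 counts in 7 of the 8 libraries. The 4 skin marker genes *dpy-7*, *rol-6*, *sqt-3* and *elt-3* summed to 1117, 1211, 2560 and 3069 CPM in replicates 1 to 4 labelled non-Tg. Under the label *smrd-1 Δ#1* the sum was 1755, 2173, 1616 and 2196 CPM, higher within replicates 1 and 2 and lower within replicates 3 and 4. Of the 4, *dpy-7*, *rol-6* and *sqt-3* had that double change without overlap, against 6.31% of all genes tested. *elt-3* had the stepwise order of *lin-14*, found in 5.0% of all genes. The part of stage or tissue make-up in the levels of the 10 regulators was not tested.

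Other genes of the heterochronic pathway were compared from a list of 15. Neither edgeR nor DESeq2 called any (0 of 15 each), and both gave 0 unadjusted p under 0.05. As labelled, 11 were lower and 4 higher. The log2 fold changes spanned -0.38 to 0.42, and their median was -0.14. The stepwise order of *lin-14* was found in 6 of the 15, namely *daf-12*, *lin-66*, *puf-9*, *ain-1*, *alg-1* and *alg-2*, against 5.0% of all genes tested. *alg-1* and *alg-2* encode the Argonaute proteins of the microRNA pathway, and *ain-1* encodes their GW182-type partner. In the same list *ain-2*, *dcr-1*, *nhl-2* and *xrn-2* did not have the stepwise order. Their log2 fold changes were -0.01, 0.0, 0.06 and -0.07. Of all these genes, only *puf-9* lies within the rule for named genes, and the others were chosen after their values were seen.

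*daf-12*, the gene of the steroid receptor that links nutrition to stage, was at 74.9, 78.3, 49.7 and 48.7 CPM in replicates 1 to 4 labelled non-Tg and at 63.4, 57.9, 36.5 and 35.6 CPM in those labelled *smrd-1 Δ#1*. The 4 pairs did not overlap. *mab-10*, whose product is a partner of LIN-29, had the order of *lin-29*, at 73.6 to 106 CPM in the libraries labelled non-Tg, 108 and 115.3 CPM in replicates 1 and 2 labelled *smrd-1 Δ#1*, and 38.7 and 52.0 CPM in replicates 3 and 4. *dre-1*, which encodes the F-box protein that directs the breakdown of BLMP-1, was likewise low in replicates 3 and 4 labelled *smrd-1 Δ#1*, at 88.4 and 116 CPM, with the other 6 libraries between 133 and 168 CPM. *daf-12*, *mab-10* and *dre-1* did not pass the test (adjusted p = 0.699, 0.849 and 0.821 from edgeR), and *daf-12* and *dre-1* lie outside the rule for named genes and were chosen after their values were seen.

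The highest log2 fold change of the list was that of *pup-2*, a poly(U) polymerase gene, at 0.42 (standard error 0.199, unadjusted p = 0.0639, adjusted p = 0.646 from edgeR). It was at 60.9 to 104 CPM in the libraries labelled non-Tg and 83.1 to 142 CPM in those labelled *smrd-1 Δ#1*. *kin-20*, the casein kinase gene that works with *lin-42*, reached 139 CPM in replicate 2 labelled non-Tg and was between 58.0 and 92.3 CPM elsewhere. *puf-9*, a Pumilio-family gene, had a log2 fold change of -0.29 with an adjusted p of 0.689 from edgeR.

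The list of other molting oscillator regulators held 6 genes, of which edgeR and DESeq2 called 0, with 0 unadjusted p under 0.05 from either. As labelled, 5 were lower and 1 higher, with a median log2 fold change of -0.34. *grh-1*, the worm Grainyhead gene, had the order of *lin-42*, at 39.0, 35.7, 63.0 and 75.2 CPM in replicates 1 to 4 labelled non-Tg and at 52.8, 61.3, 27.3 and 39.3 CPM in the others. It lies outside the rule for named genes and was chosen after its values were seen. It was 0.61 higher on the log2 scale within replicates 1 and 2 and lower within replicates 3 and 4, where the difference was -1.07. *myrf-1* and *pan-1*, whose products act together in the molt, were lowest in replicates 3 and 4 labelled *smrd-1 Δ#1*, as *lin-29* was. Unlike *lin-29*, both were also lower in replicates 3 and 4 labelled non-Tg than in replicates 1 and 2 (log2 difference -0.44 and -0.28). *myrf-1* was at 72.5 and 100.2 CPM in those libraries and at 170 to 258 CPM in the other 6. *nhr-85*, a partner of *nhr-23* in cycling transcription, and *myrf-2* stepped down as *lin-14* did, *nhr-85* from 15.3 to 3.76 CPM and *myrf-2* from 130 to 55.3 CPM at the extremes.

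The list of molting effectors held 20 genes for cuticle attachment, proteases, protease inhibitors and signalling of the molt, and edgeR and DESeq2 called 0 of them, with 0 unadjusted p under 0.05 from either. As labelled 13 were lower and 7 higher, with a median log2 fold change of -0.06. In 11 of the 20 the libraries labelled *smrd-1 Δ#1* were above those labelled non-Tg within replicates 1 and 2 and below them within replicates 3 and 4, as for *lin-42*, *lin-29* and *blmp-1* (3 of the 10 regulators). That double change was found in 6.31% of all genes tested. Over the list the median difference was 0.47 in replicates 1 and 2 and -0.45 in replicates 3 and 4. Middle pairs above both end pairs were found in 9 of the 20 effectors, against 2.61% of all genes tested. That was the order *lin-42* and *grh-1* had.

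*fbn-1*, which encodes a fibrillin-like protein that holds the skin to the old cuticle, had the widest range of the list. It was at 579, 475, 166 and 194 CPM in replicates 1 to 4 labelled non-Tg and at 421, 330.4, 14.7 and 32.4 CPM in those labelled *smrd-1 Δ#1*, in the stepwise order of *lin-14*. *mlt-11*, a protease inhibitor gene of the molt, was at 703 to 1006 CPM in the libraries labelled non-Tg, 1183 and 1332 CPM in replicates 1 and 2 labelled *smrd-1 Δ#1*, and 204 and 331 CPM in replicates 3 and 4. Its log2 fold change over all libraries was -0.19 (standard error 0.540, adjusted p = 0.908 from edgeR). *mlt-7*, a peroxidase gene, and *nas-36*, a protease gene, had the smallest unadjusted p of the list, 0.185 and 0.196 from edgeR.

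Of 6 collagen genes tied to stage in the skin, 5 were higher as labelled and 1 lower, and edgeR called 0, with 1 unadjusted p under 0.05. DESeq2 called 0, likewise with 1. That gene was *col-19*, an adult collagen gene that LIN-29 activates. It was at 435, 228, 631 and 324 CPM in replicates 1 to 4 labelled non-Tg and at 456, 543, 1545 and 1179 CPM in those labelled *smrd-1 Δ#1*. Replicates 3 and 4 labelled *smrd-1 Δ#1*, where *lin-29* itself was lowest, had the highest *col-19* levels. edgeR's log2 fold change was 1.2 (standard error 0.446, unadjusted p = 0.0256, adjusted p = 0.598 from edgeR). *col-62* had a log2 fold change of 0.52, and *bli-2*, a blister collagen gene, was 1.66 higher on the log2 scale within replicates 1 and 2 and lower within replicates 3 and 4, where the difference was -0.59.

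**Figure D4:**
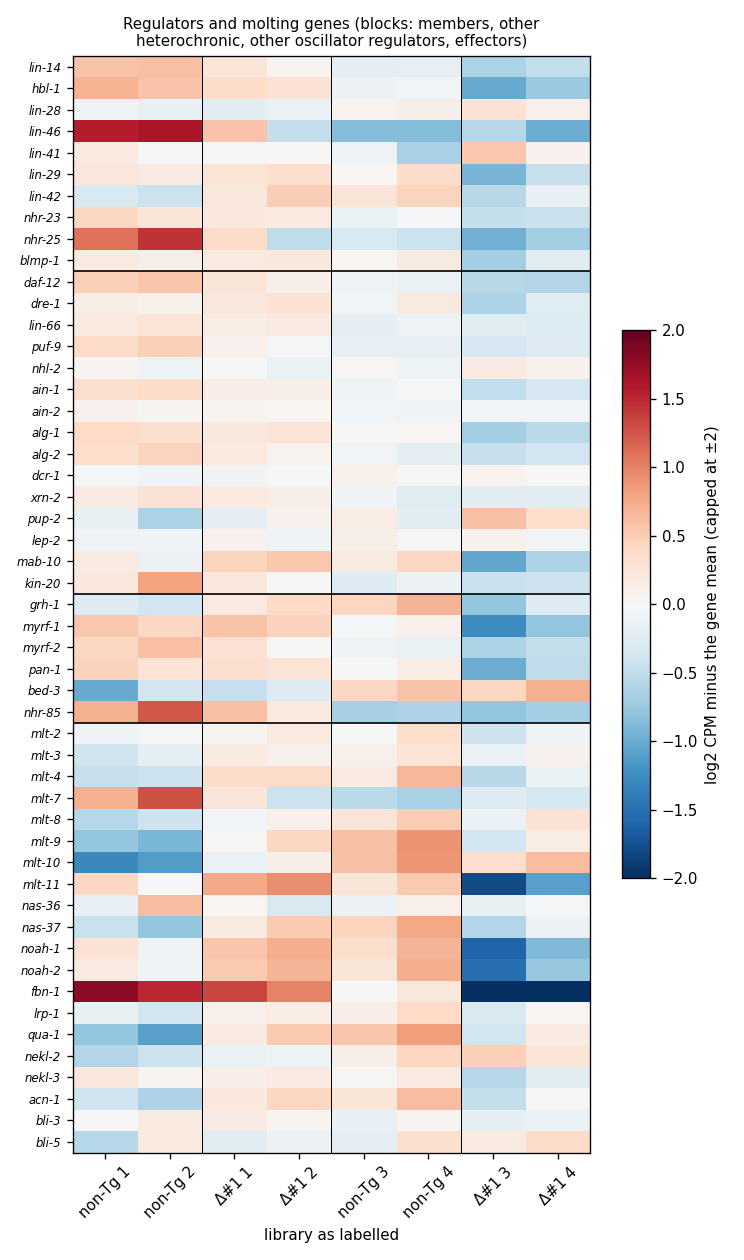
Log2 CPM of each gene minus its mean over the 8 libraries (colour, capped at ±2), with libraries in 4 pairs by label and replicate number and genes in blocks: the 10 regulators, 15 other heterochronic genes, 6 other oscillator regulators and 20 molting effectors. fbn-1 and lin-46 are far lower in the last pair than in the first, and lin-46 is about as low in replicates 3 and 4 labelled non-Tg. lin-42, grh-1, nas-37 and qua-1 are highest in the 2 middle pairs. Of these, grh-1, nas-37 and qua-1 lie outside the rule for named genes and were chosen after their values were seen.

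In a fit with a term for replicates 1 and 2 against 3 and 4, edgeR called 2 of the 10 genes, *lin-14* and *hbl-1*, both lower as labelled, where it called 5.53% of all genes tested in either direction and 2.86% as lower. *lin-14* had a log2 fold change of -0.41 there, with an adjusted p of 0.0173, and *hbl-1* one of -0.54, with an adjusted p of 0.0406. *nhr-25* and *nhr-23* had adjusted p-values of 0.0671 and 0.0682 from the same fit. Among the other lists this fit called *daf-12*, *ain-1*, *alg-2*, *myrf-2* and *elt-3* lower and *vit-3* and *vit-4* higher as labelled. The term was known from earlier results of these data, so these calls are no independent support.

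The 10 genes lie on chromosome I (4 genes), II (2), V (1) and X (3) of the WBcel235 genome, and all are protein-coding. *lin-14* spans X:11465560-11485871 on the plus strand with 3665 exonic bases, and *hbl-1* spans X:5822142-5827755 on the plus strand with 4478. *lin-42* spans II:1233236-1252359 on the minus strand with 7 annotated transcripts, which the gene count does not separate, and *lin-29* spans II:11917642-11935343 on the minus strand. *lin-46* spans V:12968855-12970730 and *nhr-25* spans X:13008493-13013964, both on the plus strand. Because strand was not used in counting, reads could not be told apart by strand where exons of opposite genes overlap. That concerned 16 exonic bases of *lin-28*, shared with F02E9.1, and 2 of *lin-29*, shared with *hmg-12*. On its own strand *lin-14* shares 108 exonic bases with the snoRNA gene T25C12.11 and 99 with T25C12.12, each with 0 counts over the 8 libraries. How reads in such overlaps were assigned was not examined.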

How the data were processed

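Reads of 150 bp in pairs were mapped by the authors to WBcel235 with STAR 2.7.11b, and they deposited raw counts per gene from featureCounts 2.0.1. The count command names annotation release 112 (the methods name 113) and has no option for pairs, strand or multi-mapping reads, so mates were counted singly. The deposited exon length of each gene was used for TPM. A deposited DESeq2 table of the authors' own comparison gave gene names only, and its fold changes and p-values were not used. Gene positions came from release 115.

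Genes were tested with edgeR 4.0.16 (R 4.3.3), with its expression filter, TMM and the quasi-likelihood test without covariates. The call threshold was a Benjamini-Hochberg adjusted p of 0.05 over all genes tested. Standard errors are the log2 fold change over the square root of F. Differences within replicate sets use log2 CPM with a prior count of 2. DESeq2 1.42.0 and other settings were alternatives. The tests were tried on simulated data. Same-numbered libraries deviated together (correlation across genes of residuals, 0.221 to 0.489 in the 4 pairs), so the replicate block was fitted as well. Differently numbered libraries within replicates 1 and 2 or within replicates 3 and 4 did so too (0.255 to 0.516). The correlations therefore did not single out pairs by number.

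The 10 genes and the lists were chosen with earlier results of these data known. Named genes are the 10, *smrd-1*, and from each other list any called gene or else the 2 genes with the smallest p and the 2 with the widest range, plus the 3 genes most like the member of widest range. Floors of 3 counts cover counting error only. Python 3.11.15, pandas 2.3.3 and matplotlib 3.10.9 were used for summaries and plots.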

Additional observations from a re-analysis of the deposited data

Results flagged for a closer look

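For 3 of the 10 genes the libraries labelled *smrd-1 Δ#1* were above those labelled non-Tg within replicates 1 and 2 and below them within replicates 3 and 4. That double change was found in 6.31% of all genes tested. The log2 differences were 0.72 and -0.70 for *lin-42*, 0.12 and -0.90 for *lin-29*, and 0.05 and -0.57 for *blmp-1*, and these changes of sign were not tested. For *blmp-1* the difference of 0.05 was smaller than that between replicates 1 and 2 labelled non-Tg. For *lin-41*, replicates 3 and 4 lay below replicates 1 and 2 in the libraries labelled non-Tg (log2 difference -0.46) and above them in those labelled *smrd-1 Δ#1* (0.33), which was likewise not tested. Replicate 3 labelled *smrd-1 Δ#1* stood apart from the other libraries of its group for *lin-41*, with a gap of 0.833 of the group's range to its nearest neighbour. Chance sets about 1 in 20 such groups apart, and each of the 10 genes has 2 such groups.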

How the results depend on the processing

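Over 15 other settings, edgeR or DESeq2 called 0 of the 10 regulators in each, except with replicates 1 and 2 against 3 and 4 as covariate, where edgeR called 2. Of 150 fits of a regulator under another setting, 141 kept direction and side of the threshold, but 1 library could move a log2 fold change by over 1.5 times. Without replicate 3 labelled *smrd-1 Δ#1* it was -0.12 for *lin-29*, 0.13 for *lin-41*, -0.28 for *hbl-1*, -0.14 for *nhr-23* and -0.07 for *blmp-1*, and without replicate 4 it was -0.15 for *nhr-23*. Without replicate 1 labelled *smrd-1 Δ#1* it was -0.32 for *blmp-1*, and without replicate 2 it was -0.33 for *blmp-1* and -0.49 for *lin-29*. Without replicate 1 labelled non-Tg it was -0.13 for *nhr-23*, without replicate 2 it was -0.69 for *lin-46* and -0.64 for *nhr-25*, and without replicate 4 it was 0.14 for *lin-41*. The 7 that turned direction were fits of *lin-28* and *lin-42* with a library left out, where the log2 fold change ran from -0.08 to 0.10 and from -0.17 to 0.18. For all genes tested, the count of calls was 26 and became 251 with DESeq2, 929 with that covariate and 7 to 14 with each library left out in turn, with a drop of over 1.5 times for each of the 8 libraries. Genes of the other lists called numbered 0, but 3 with DESeq2 (*vit-3*, *vit-4* and *vit-5*) and 7 with the covariate. The log2 fold change of *smrd-1* stayed between 0.77 and 0.85, and was 0.81 with an adjusted p of 0.0574 from edgeR without replicate 1 labelled *smrd-1 Δ#1*. With the replicate block, edgeR called 26 genes, 0 of the 10 regulators and 0 of the other lists, and changed no call described above. The order of replicates within groups was the same for all 10 genes with DESeq2's size factors. The smallest count of a regulator was 90, while 4 of the 5 early embryo genes had too few counts to be tested.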
